A study of Sus scrofa with 3 samples.

Results

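The genes described here are 7 markers of the cells that line the liver sinusoids: CSF1R, MARCO, CLEC4F and LYZ for Kupffer cells, the resident macrophages of the liver, and STAB1, KDR and MMRN2 for endothelial cells. They are 7 of the 25322 Ensembl gene IDs in each count table, and all 7 matched an ID. They were chosen by their read counts in these same libraries, as genes that differed between them, so the differences below are descriptions and carry no test. RNA came from livers of male pigs aged 90 days after birth, and each of 3 breeds gave 1 library. The animals were an Enshi black pig, from a Chinese local breed, a Chinese wild boar, and a Large White pig, from a European commercial breed. No treatment or engineered allele is given for any of them. With 1 library per breed, breed, animal and library cannot be told apart, there is no replicate spread, and no p-value is given.

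Kupffer cells sit inside the sinusoids, the leaky capillaries of the liver, where they take up particles, bacteria and worn red cells from portal blood. They depend on signalling through the CSF1 receptor. Sinusoidal endothelial cells form the capillary wall, clear soluble waste through scavenger receptors such as the stabilins, and respond to VEGF made by neighbouring hepatocytes through the receptor encoded by KDR. In whole-tissue RNA, fewer cells of a type and less RNA per cell cannot be told apart.

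Levels are in CPM (counts per 1000000 counts of a library), with 95% exact Poisson intervals in parentheses. Folds use counts scaled by TMM (trimmed mean of M values) factors and carry 95% exact binomial intervals, and neither interval covers more than counting error. The size rule asks that the whole interval of a fold lie at or above 2 or at or below 0.5, and genes that meet it are said to pass. Library totals lay between 19982627 and 20654571 counts, and 13228 IDs were expressed, meaning at least 1 CPM in at least 1 library. As a check of the liver label, the hepatocyte product albumin (ALB) was abundant in all 3 libraries, at 69493, 52507 and 24749 CPM in Enshi black, Chinese wild boar and Large White. Of 13 hepatocyte markers that matched an ID, 12 were expressed by this rule, and APOA1, with 2, 2 and 0 counts in that order, was not. Whether the matched ID captures the reads of APOA1 was not tested, and the same holds for other listed genes with few counts. Of the 4 macrophage genes, all were lower in Enshi black than in Large White, where 8.39% of expressed genes passed as lower and 4.69% as higher. The endothelial genes did not move together in that comparison, since STAB1 was lower, MMRN2 higher and KDR within 2-fold. The Poisson intervals of MMRN2 overlapped in Chinese wild boar and Large White.

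CSF1R (ENSSSCG00000014441) encodes the receptor tyrosine kinase for CSF1 and interleukin 34, on which tissue macrophages depend for survival. It had 16.3 CPM (14.6 to 18.2) in Enshi black, 54.5 CPM (51.3 to 57.8) in Chinese wild boar and 109 CPM (104 to 113) in Large White. The libraries therefore stood in clear order, with Large White highest. In Enshi black CSF1R was 7.12-fold lower (6.35 to 8.01) than in Large White and 3.57-fold lower (3.15 to 4.04) than in Chinese wild boar. In Chinese wild boar it was 2.0-fold lower (1.86 to 2.15) than in Large White, just short of the size rule.

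MARCO (ENSSSCG00000015716) is a class A scavenger receptor that binds bacteria and particles. Its levels were 22.4 CPM (20.4 to 24.5) in Enshi black, 28.3 CPM (26.0 to 30.7) in Chinese wild boar and 83.2 CPM (79.2 to 87.3) in Large White. Here the Large White library stood apart and the other 2 were close, with Enshi black 1.35-fold lower (1.19 to 1.53) than Chinese wild boar. MARCO passed as lower against Large White in both, by 3.97-fold (3.58 to 4.41) in Enshi black and 2.94-fold (2.67 to 3.24) in Chinese wild boar.

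CLEC4F (ENSSSCG00000023258), a C-type lectin known as a Kupffer cell marker in the mouse, followed another order. It had 39.7 CPM (37.0 to 42.5) in Enshi black, 105 CPM (100.2 to 109) in Chinese wild boar and 93.1 CPM (88.9 to 97.4) in Large White. Enshi black alone was low, 2.51-fold lower (2.31 to 2.73) than Large White and 2.82-fold lower (2.60 to 3.06) than Chinese wild boar. Between Chinese wild boar and Large White the fold was 1.12 (1.05 to 1.20).

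LYZ (ENSSSCG00000000492) encodes lysozyme, an enzyme that cuts bacterial cell walls and is made by macrophages and neutrophils. It was the least covered of the macrophage genes, with 25 counts in Enshi black, 65 in Chinese wild boar and 151 in Large White. These correspond to 1.21 CPM (0.783 to 1.79), 3.22 CPM (2.48 to 4.10) and 7.56 CPM (6.40 to 8.86) in that order of libraries, the same ranking as for CSF1R. LYZ passed as lower in Enshi black against Large White by 6.67-fold (4.35 to 10.6). Neither comparison with Chinese wild boar passed, at 2.84-fold lower (1.76 to 4.70) in Enshi black than in Chinese wild boar and 2.35-fold lower (1.75 to 3.20) in Chinese wild boar than in Large White.

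**Figure D1:**
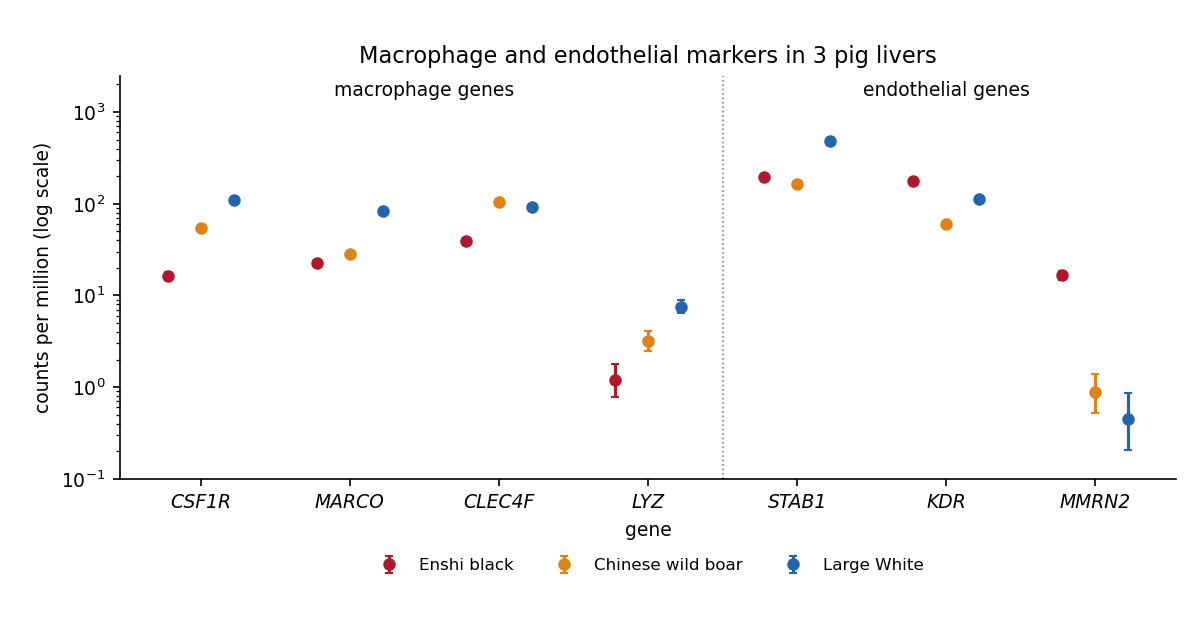
Level of each gene in CPM on a log axis, 1 point per library, with 95% exact Poisson intervals as bars (hidden by the point where narrow). Enshi black is the lowest library for all 4 macrophage genes, while MMRN2 is at 16.5 CPM in Enshi black and below 1 CPM in both others.

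STAB1 (ENSSSCG00000011443) encodes stabilin-1, a scavenger receptor of sinusoidal endothelium that some macrophages also make. It had 194 CPM (188 to 200.4) in Enshi black, 165 CPM (159 to 170.3) in Chinese wild boar and 488 CPM (479 to 498) in Large White. As with MARCO, Large White stood apart: STAB1 was 2.68-fold lower (2.59 to 2.79) in Enshi black and 2.97-fold lower (2.85 to 3.09) in Chinese wild boar, and the fold between Enshi black and Chinese wild boar was 1.11 (1.06 to 1.16).

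KDR (ENSSSCG00000008844), the VEGF receptor that carries most VEGF signalling in endothelium, was highest in Enshi black. Its levels were 176 CPM (171 to 182) in Enshi black, 60.4 CPM (57.1 to 63.9) in Chinese wild boar and 113 CPM (108 to 118) in Large White. KDR passed as higher in Enshi black than in Chinese wild boar, at 2.74-fold (2.56 to 2.92). The fold of 1.46 (1.39 to 1.54) for Enshi black over Large White and the 1.87-fold lower level (1.75 to 2.01) in Chinese wild boar than in Large White did not pass.

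MMRN2 (ENSSSCG00000024048) encodes multimerin-2, a glycoprotein that endothelial cells lay down in their matrix. It had 341 counts in Enshi black against 18 in Chinese wild boar and 9 in Large White, or 16.5 CPM (14.8 to 18.4) against 0.890 CPM (0.528 to 1.41) and 0.450 CPM (0.206 to 0.855). Enshi black was therefore 34.3-fold higher (17.9 to 75.7) than Large White and 17.4-fold higher (10.8 to 29.7) than Chinese wild boar, and Chinese wild boar over Large White was at 1.98 (0.843 to 4.99). These values run opposite to the counts of the adjacent gene SNCG, given below, and MMRN2 is treated as uncertain.

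Counted over comparisons, 4 of 4 macrophage genes passed as lower in Enshi black against Large White, and of the 3 endothelial genes 1 passed higher, 1 lower and 1 neither way. In Chinese wild boar against Large White, where 2.96% of expressed genes passed as higher and 3.74% as lower, MARCO and STAB1 passed as lower and the other 5 did not pass. In Enshi black against Chinese wild boar, where 4.03% passed as higher and 7.10% as lower, CSF1R and CLEC4F passed as lower, KDR and MMRN2 as higher, and 3 genes did not pass. With variation between animals assumed at a coefficient of 0.4, MARCO, CLEC4F and STAB1 no longer passed in Enshi black against Large White, which leaves 2 of 4 macrophage genes. The same held for MARCO and STAB1 in Chinese wild boar against Large White and for CSF1R, CLEC4F and KDR in Enshi black against Chinese wild boar. The genes were picked for such differences, so nothing is read from these counts against those percentages. The comparisons with Large White share that library, and likewise those with Enshi black and with Chinese wild boar. MARCO and STAB1, scavenger receptors assigned to different cell types, both stood high in Large White alone, while CLEC4F was low in Enshi black alone and KDR was lowest in Chinese wild boar.

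**Figure D2:**
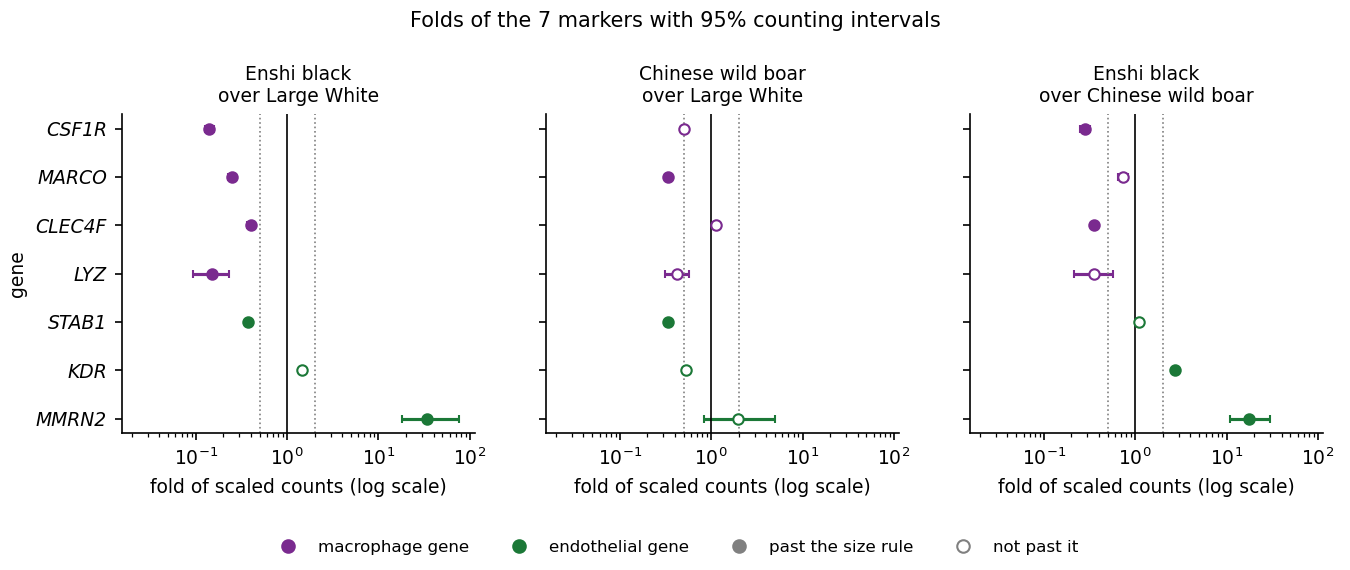
Fold of TMM-scaled counts for each gene in the 3 comparisons on a log axis, with 95% exact binomial intervals, dotted lines at 0.5 and 2, and filled points for genes past the size rule. All 4 macrophage genes lie below 0.5 for Enshi black over Large White, while KDR lies at 1.46 and MMRN2 at 34.3.

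A ratio of macrophage to endothelial counts within a library does not depend on how libraries are scaled. There were 0.0925 CSF1R counts per KDR count in Enshi black (0.0825 to 0.103), 0.903 in Chinese wild boar (0.831 to 0.980) and 0.962 in Large White (0.906 to 1.02). Chinese wild boar and Large White thus lay close together on this ratio, although both genes had lower CPM in Chinese wild boar. Per KDR count, MARCO gave 0.127 (0.115 to 0.140), 0.468 (0.423 to 0.518) and 0.736 (0.690 to 0.784), and CLEC4F gave 0.225 (0.208 to 0.243), 1.73 (1.61 to 1.86) and 0.823 (0.774 to 0.876), in Enshi black, Chinese wild boar and Large White. Enshi black was lowest on each of them. Set against STAB1, CLEC4F gave 0.204 (0.189 to 0.220) per STAB1 count in Enshi black, 0.636 (0.602 to 0.671) in Chinese wild boar and 0.191 (0.181 to 0.200) in Large White. The ratio between CLEC4F and STAB1 thus stood apart in Chinese wild boar, and the intervals of the other 2 libraries overlapped. For CSF1R the ratios to STAB1 were 0.0840 (0.0749 to 0.0939) in Enshi black, 0.331 (0.309 to 0.355) in Chinese wild boar and 0.223 (0.212 to 0.233) in Large White, with Enshi black lowest again. Of the 12 macrophage-to-endothelial ratios, 11 were lower in Enshi black than in Large White (the exception being CLEC4F to STAB1), 12 of 12 were lower in Enshi black than in Chinese wild boar, and 7 were lower and 5 higher in Chinese wild boar than in Large White. These ratios share genes, are not independent and are built from genes picked for their differences, so nothing is read from their counts. In Enshi black over Chinese wild boar all 4 macrophage genes had folds below 1 and all 3 endothelial genes above 1. The 12 of 12 follows from those folds. The 4 ratios to MMRN2 rest on its uncertain counts. Without them, a choice made after seeing the data, 7 of 8 were lower in Enshi black against Large White, 8 of 8 in Enshi black against Chinese wild boar, and 3 were lower and 5 higher in Chinese wild boar against Large White, so that the majority turned there.

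On the log2 scale, with 2 counts added to limit the weight of low counts, the median fold of the macrophage genes minus that of the endothelial genes was -2.86 for Enshi black over Large White, -2.91 for Enshi black over Chinese wild boar and -0.20 for Chinese wild boar over Large White. Without MMRN2 the same differences were -1.87, -2.26 and 0.13, so the last changed sign.

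**Figure D3:**
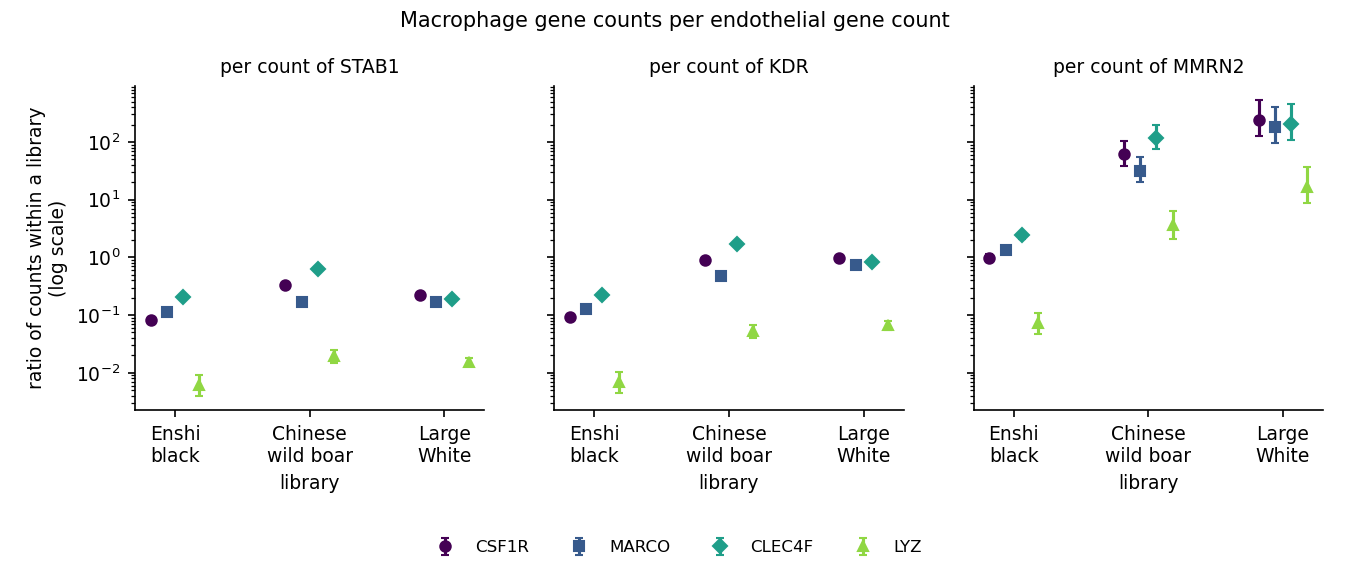
Counts of each macrophage gene divided by those of STAB1, KDR or MMRN2 in the same library, on a shared log axis, with 95% exact binomial intervals. Per KDR count, all 4 macrophage genes are lowest in Enshi black, while per STAB1 count CLEC4F is close in Enshi black (0.204) and Large White (0.191).

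Beyond the 4 genes above, the macrophage list held 1 further gene that passed in Enshi black against Large White. Of 30 listed macrophage markers, 18 matched an ID and 17 were expressed. Leaving out CSF1R, MARCO, CLEC4F and LYZ, 13 remained, of which 1 passed as lower, none as higher and 12 neither way in Enshi black against Large White, close to the 8.39% of all expressed genes that passed as lower, with a median log2 fold of -0.18 against 0.01 over all expressed genes. The gene that passed was SIGLEC1, the sialic acid receptor sialoadhesin of tissue macrophages, at 83.0, 137 and 190 CPM in Enshi black, Chinese wild boar and Large White, or 2.44-fold lower (2.30 to 2.58) in Enshi black relative to Large White. TIMD4, a phosphatidylserine receptor of resident macrophages, was at 25.1, 24.3 and 49.9 CPM in the same order, and its 2.13-fold lower level (1.91 to 2.37) in Enshi black than in Large White did not pass.

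Of the abundant markers, 6 that are named after their values were seen did not pass in any comparison. C1QA, a chain of complement C1q, had 573 CPM in Enshi black, 506 in Chinese wild boar and 510.3 in Large White. FOLR2, a folate receptor of tissue macrophages, had 310.0 CPM in Enshi black, 286 in Chinese wild boar and 298 in Large White. For CD68, a lysosomal glycoprotein of macrophages, the levels were 56.3, 69.2 and 59.9 CPM. CD14, a lipopolysaccharide coreceptor that hepatocytes also make, had 900 CPM in Enshi black, 1034 in Chinese wild boar and 1107 in Large White. These 4 genes stayed within 1.5-fold in every comparison. The lysosomal proteases CTSS and LGMN were highest in Enshi black, with 229 and 997 CPM in Enshi black, 135 and 802 in Chinese wild boar and 165 and 719 in Large White, and CTSS was at 1.59-fold (1.51 to 1.66) in Enshi black over Chinese wild boar.

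The summed level of the 13 other markers was 3403 CPM in Enshi black, 3082 in Chinese wild boar and 3257 in Large White. In Chinese wild boar against Large White 1 of the 13 passed as higher and none as lower (median -0.29), against 2.96% and 3.74% of all expressed genes. In Enshi black against Chinese wild boar 1 passed each way (median 0.02), against 4.03% as higher and 7.10% as lower. FCGR1A, a high-affinity immunoglobulin receptor, passed as higher in Chinese wild boar than in Large White at 5.31-fold (2.47 to 13.1), from 43 and 8 counts, and had 2 counts in Enshi black, a ratio of 0.0426 (0.00500 to 0.164) to Chinese wild boar that passed as lower. MRC1, the mannose receptor, which sinusoidal endothelium makes as well as macrophages, had 198, 60.6 and 123 CPM in Enshi black, Chinese wild boar and Large White and passed as higher in Enshi black against Chinese wild boar at 3.07-fold (2.88 to 3.27). Its order of libraries was that of KDR and not that of CSF1R.

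In the list of the CSF1 receptor axis and its myeloid regulators, CSF1R alone passed in Enshi black against Large White. CSF1 and IL34, the ligands of CSF1R, were not analysed here because their symbols matched no ID in the tables. The other 8 of its 9 expressed genes had a median log2 fold of -0.56 in that comparison. SPI1, encoding the myeloid transcription factor PU.1, had 74.9 CPM in Enshi black, 61.4 in Chinese wild boar and 116 in Large White, or 1.66-fold lower (1.56 to 1.77) in Enshi black than in Large White. In Chinese wild boar against Large White 2 of the 8 passed as lower, as did 3.74% of all expressed genes. The 2 were the kinase FGR by 2.45-fold (2.17 to 2.78) and the phospholipase PLCG2 by 2.69-fold (2.18 to 3.33). The median of the 8 was -0.88 in that comparison, against 0.0011 over all expressed genes, and 0.32 in Enshi black against Chinese wild boar, where none of the 8 passed.

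**Figure D4:**
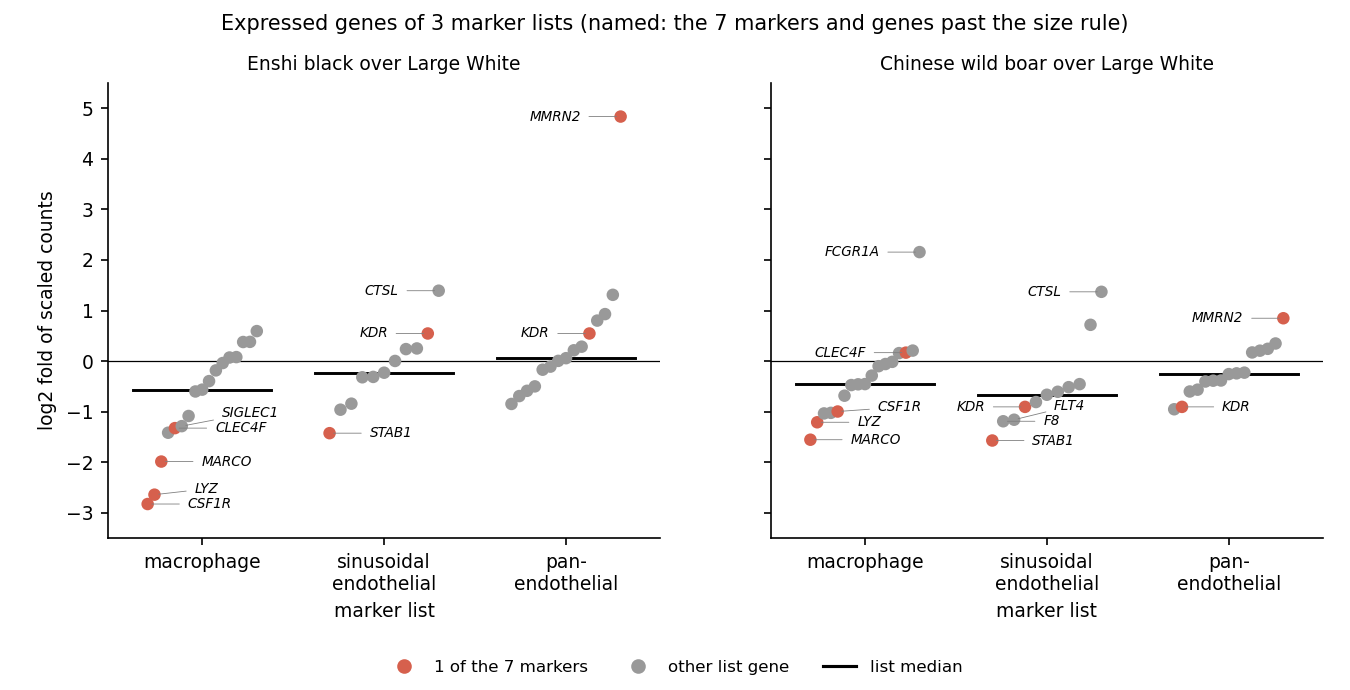
Log2 fold of every expressed gene in the macrophage, sinusoidal endothelial and pan-endothelial lists (grey) with the 7 markers in red and list medians as black lines, for Enshi black (left) and Chinese wild boar (right) over Large White. KDR is in both endothelial lists. In the left panel CSF1R, LYZ and MARCO are the lowest points of a macrophage list whose median is -0.56. Without the macrophage genes among the 7 markers, which were picked for their differences, that median is -0.18.

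Sinusoidal endothelial genes other than STAB1 and KDR were 9 expressed of 20 listed. In Enshi black against Large White, where 4.69% of all expressed genes passed as higher and 8.39% as lower, 1 of the 9 passed as higher and none as lower (median -0.23). That gene was CTSL, a lysosomal protease that many cell types make, at 63.4 and 58.5 CPM in Enshi black and Chinese wild boar and 22.6 CPM in Large White. In Chinese wild boar against Large White, where 2.96% of all expressed genes passed as higher and 3.74% as lower, CTSL again passed as higher, at 2.59-fold (2.32 to 2.89). In that comparison 2 genes passed as lower (median -0.61). These were coagulation factor VIII (F8), which liver sinusoidal endothelium makes, by 2.28-fold (2.07 to 2.53), and FLT4, a receptor for VEGFC and VEGFD, by 2.24-fold (2.06 to 2.43). F8 had 35.3, 28.2 and 64.4 CPM in Enshi black, Chinese wild boar and Large White, the same ranking as STAB1. None of the 9 passed in Enshi black against Chinese wild boar (median 0.23). LYVE1, the hyaluronan receptor of sinusoidal and lymphatic endothelium, had 36.7 CPM in Enshi black, 47.5 in Chinese wild boar and 28.8 in Large White, and CLEC1B, also listed, had 2, 0 and 1 counts.

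Pan-endothelial genes other than KDR and MMRN2 were 13 expressed of 25 listed. None of the 13 passed in Enshi black against Large White (median 0.0044) or in Chinese wild boar against Large White (median -0.26), and their summed levels were 826 CPM in Enshi black, 770.2 in Chinese wild boar and 819 in Large White. PECAM1, the junctional adhesion molecule CD31, had 116, 105 and 93.5 CPM and endoglin (ENG) 313, 325 and 282 CPM in that order of libraries, both named after their values were seen. In Enshi black against Chinese wild boar, where 4.03% of all expressed genes passed as higher, 1 of the 13 did (median 0.28). This was FLT1, a VEGF receptor that acts largely as a decoy, at 36.2 CPM in Enshi black, 13.1 in Chinese wild boar and 19.4 in Large White, which was 2.59-fold higher (2.25 to 2.99) in Enshi black than in Chinese wild boar. FLT1 ranked the libraries as KDR did.

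VEGFA, the main ligand of KDR, was lowest in Enshi black, where KDR was highest. VEGFA had 70.3 CPM in Enshi black, 161 in Chinese wild boar and 189 in Large White, and passed as lower in Enshi black, by 2.88-fold (2.71 to 3.06) against Large White and 2.45-fold (2.30 to 2.60) against Chinese wild boar. In Chinese wild boar over Large White VEGFA was at 0.850 (0.811 to 0.891), below 1 like KDR. The ligands VEGFC and VEGFD, which act mainly on FLT4, had 6.49 and 4.31 CPM in Enshi black, 4.75 and 2.52 in Chinese wild boar and 3.95 and 2.35 in Large White. Both were thus highest in Enshi black, as KDR was, at 1.54-fold (1.15 to 2.05) and 1.71-fold (1.19 to 2.50) over Large White, and did not pass. Without KDR, 12 genes of the VEGF and angiopoietin list were expressed. VEGFA was the 1 that passed in Enshi black against Large White (median 0.29), where 8.39% of all expressed genes passed as lower. FLT4 was the 1 that passed in Chinese wild boar against Large White (median -0.40), where 3.74% passed as lower. FLT1 higher and VEGFA lower were those that passed in Enshi black against Chinese wild boar (median 0.70), where 4.03% passed as higher and 7.10% as lower. The coreceptor NRP1 had 109, 54.1 and 57.8 CPM in Enshi black, Chinese wild boar and Large White and did not pass.

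Among scavenger receptors other than MARCO and STAB1, 8 were expressed. SCARF1, a receptor for modified lipoproteins on endothelial cells and macrophages, had 14.3, 27.6 and 47.1 CPM in Enshi black, Chinese wild boar and Large White. It passed as lower in Enshi black against Large White, where 8.39% of all expressed genes did, by 3.52-fold (3.09 to 4.03), and the other 7 did not pass (median of the 8, 0.12). Its ranking of the libraries was that of CSF1R. MSR1, which like MARCO is a class A receptor, had 12.7, 13.2 and 18.1 CPM across those libraries and did not pass. None of the 8 passed in Chinese wild boar against Large White (median -0.19), and MRC1 was the 1 that passed in Enshi black against Chinese wild boar (median 0.02). STAB2, the other stabilin, was not analysed here, as its symbol matched no ID.

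No family member or binding partner of MMRN2 passed as higher in Enshi black, though MMRN1 and EMILIN1 ranked the libraries as MMRN2 did. MMRN1, the platelet and endothelial multimerin, had 6.78 CPM in Enshi black, 3.22 in Chinese wild boar and 2.50 in Large White, or 2.54-fold higher (1.82 to 3.58) in Enshi black than in Large White, which did not pass. EMILIN1, an elastic fibre glycoprotein, had 253, 229 and 223 CPM in those libraries. EMILIN2, a related matrix glycoprotein, had 15.2, 6.33 and 24.2 CPM and passed as lower in Chinese wild boar than in Large White by 3.82-fold (3.14 to 4.68). CD93 and CLEC14A, endothelial receptors that bind MMRN2, had 83.1 and 45.8 CPM in Enshi black, 97.8 and 35.4 in Chinese wild boar and 117 and 46.2 in Large White, and neither passed in any comparison. Of the 7 expressed genes of this list other than MMRN2, SNCG, listed as its neighbour, was the 1 that passed in Enshi black against Large White and against Chinese wild boar.

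SNCG, which encodes gamma-synuclein, is the gene next to MMRN2 in the RefSeq annotation of assembly Sscrofa11.1. The build named for these counts is Sscrofa10.2, and the order of genes there was not checked. SNCG had 15 counts in Enshi black, 386 in Chinese wild boar and 530 in Large White, the reverse of MMRN2. In Enshi black SNCG was 39.0-fold lower (23.4 to 70.2) than in Large White and 28.1-fold lower (16.8 to 50.6) than in Chinese wild boar. Counts of MMRN2 and SNCG together were 356 in Enshi black, 404 in Chinese wild boar and 539 in Large White, and MMRN2 took 95.8% (93.1 to 97.6), 4.46% (2.66 to 6.95) and 1.67% (0.766 to 3.15) of them, with exact Clopper-Pearson 95% intervals. Their sum in Enshi black over Large White was at a fold of 0.598 (0.522 to 0.685), opposite in direction to MMRN2 alone. SNCG made up nearly all of the sum in Large White, so this is not a fold of MMRN2. Of 4234 pairs of adjacent protein-coding genes with both expressed, 13 (0.307%) passed the size rule in opposite directions in Enshi black against Large White, and MMRN2 with SNCG was the 1 pair in which both folds exceeded 10. MMRN2 was picked for its difference and SNCG was named after its counts were seen, so nothing is read from their place among these pairs. Strand setting and annotation release were not given in the sources used here. Whether reads of the pair were assigned differently in the Enshi black library was not tested.

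Neighbours with counts to set beside them were found for STAB1, CSF1R and KDR, while those of MARCO, CLEC4F and LYZ had at most 13 counts in a library or matched no ID. NT5DC2, next to STAB1, had 71 counts in Enshi black, 393 in Chinese wild boar and 578 in Large White, and passed as lower in Enshi black by 8.99-fold (7.02 to 11.7) against Large White. With counts of STAB1 and NT5DC2 added, no STAB1 call changed, since STAB1 supplied 98.3%, 89.4% and 94.4% of the sums. PDGFRB, a stromal receptor tyrosine kinase and the gene after CSF1R, was level at 16.6, 18.3 and 17.6 CPM in Enshi black, Chinese wild boar and Large White, while CSF1R spanned 16.3 to 109 CPM. KIT, the stem cell factor receptor next to KDR, had 12.7, 3.46 and 4.75 CPM and passed as higher in Enshi black against Chinese wild boar at 3.44-fold (2.64 to 4.55), the comparison in which KDR also passed as higher. PDGFRA, which lies in the same receptor cluster as KIT and KDR in mammals and marks stromal cells, had 14.6, 6.23 and 4.15 CPM and passed as higher in Enshi black against Large White at 3.28-fold (2.57 to 4.24).

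**Figure D5:**
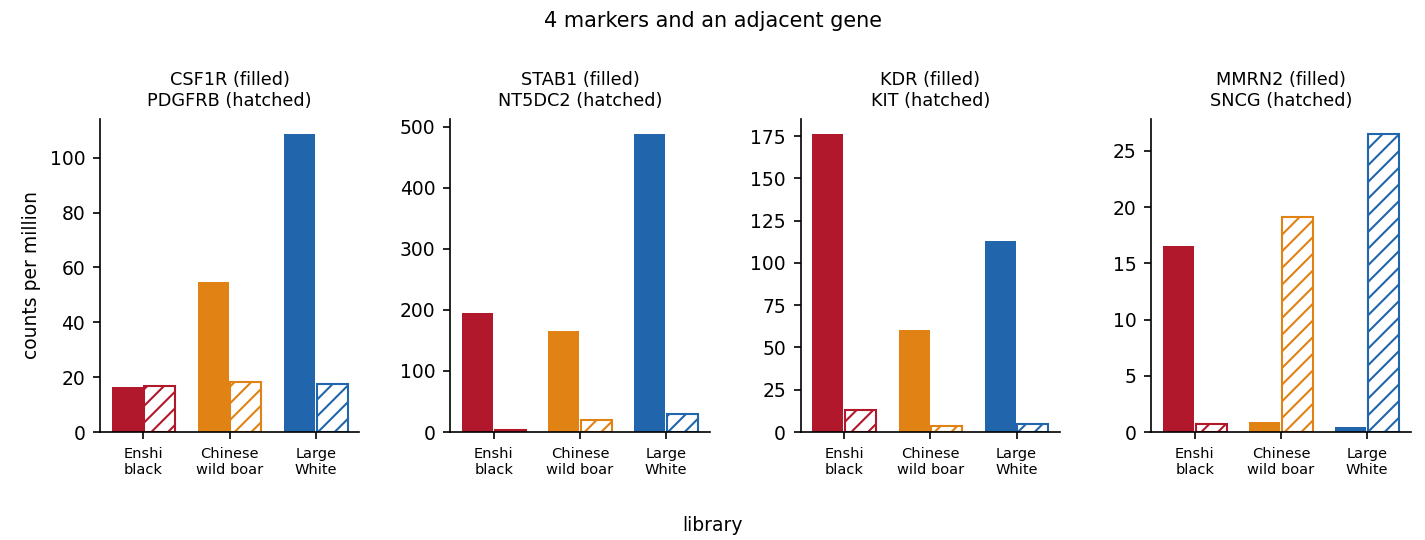
Level in CPM of 4 markers (filled bars) and an adjacent gene (hatched bars) in the 3 libraries, each panel on its own linear axis from 0. MMRN2 and SNCG change places between Enshi black and the other 2 libraries, while PDGFRB stays between 16.6 and 18.3 CPM as CSF1R spans 16.3 to 109 CPM.

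Markers of other cell types also differed between the libraries, and their part in the values above was not tested. CSF3R, the receptor for granulocyte colony-stimulating factor and a neutrophil marker, had 6.29 CPM in Enshi black, 4.40 in Chinese wild boar and 33.1 in Large White. CSF3R and MMP9 passed as lower in Enshi black and in Chinese wild boar, each against Large White. Of all expressed genes, 8.39% passed as lower in Enshi black and 3.74% in Chinese wild boar. MMP9 had 7 counts in Enshi black, 4 in Chinese wild boar and 30 in Large White, and reached 1 CPM in Large White alone. The 3 expressed neutrophil markers of 10 listed summed to 7.21, 5.89 and 35.9 CPM, mostly CSF3R, which like MARCO and STAB1 was high in Large White alone. The others did not all share that order: myeloperoxidase (MPO) had 12, 26 and 26 counts, the calgranulin S100A8 6, 15 and 12 counts, and the granule collagenase MMP8 0, 0 and 4 counts in Enshi black, Chinese wild boar and Large White. Haemoglobin HBB, listed as an erythroid marker, had 38.2 CPM in Enshi black, 178 in Chinese wild boar and 100.1 in Large White. That order was shared by CLEC4F alone among the 7 genes. The 3 expressed erythroid and platelet markers summed to 49.0, 185 and 106 CPM, mostly HBB, and the other 2 differed from it. The haem synthesis enzyme gene ALAS2 had 8.09, 3.36 and 2.85 CPM and the globin gene HBM 2.81, 3.61 and 2.80 CPM in Enshi black, Chinese wild boar and Large White, and the median log2 fold of the list for Enshi black over Large White was -0.09. HBB passed as lower in Enshi black against Large White and against Chinese wild boar, by 2.80-fold (2.58 to 3.05) and 4.99-fold (4.62 to 5.40). Of 13 expressed stellate cell and fibroblast markers, 7 passed as higher and none as lower in Enshi black against Large White (over all expressed genes, 4.69% passed as higher and 8.39% as lower), and they summed to 1527, 863 and 625 CPM in Enshi black, Chinese wild boar and Large White. COL3A1, a collagen chain of the stroma, had 875, 375 and 227 CPM in that order. Of 12 expressed hepatocyte markers, ALB and APOB passed as higher and FGB as lower in Enshi black against Large White. The 12 summed to 102268, 81709 and 56950 CPM in Enshi black, Chinese wild boar and Large White, in the order of ALB, whereas 7 of the 12 had a fold below 1 in Enshi black over Large White and the median log2 fold was -0.44.

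Genes whose log2 folds over Large White, in Enshi black and in Chinese wild boar, lay nearest to those of a marker were sought among 8060 named genes with at least 100 counts over the 3 libraries. This likeness rests on 3 libraries and is a description. For CSF1R they were RBM25, SLC13A5 and HAL, at distances of 0.10, 0.12 and 0.15 in log2 units. RBM25, a splicing factor gene, had 47.5, 154 and 326 CPM in Enshi black, Chinese wild boar and Large White. SLC13A5, a citrate transporter of hepatocytes, had 7.12, 21.7 and 44.1 CPM, and HAL, an enzyme of histidine breakdown, 17.0, 58.6 and 107 CPM. None of the 3 is a gene of the macrophage list. The nearest to STAB1 were FOS, CECR2 and PLK3 (0.09, 0.14 and 0.15), and FOS, an immediate early transcription factor gene, had 22.8, 20.7 and 57.9 CPM. KDR had KIF23, RAD54L and CD48 nearest (0.01, 0.04 and 0.05), of which KIF23 and RAD54L encode a mitotic motor and a DNA repair protein, and 48 genes lay within 0.25 of it. No gene lay within 0.25 of MMRN2, and the nearest, ST6GALNAC1, was at 0.70, followed by SFRP1 at 1.64 and LEPR at 1.70.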

How the data were processed

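Liver RNA of 3 pigs was sequenced as 125 bp paired-end reads, 1 library per breed, per the labels' protocols. The authors deposited whole-number read counts per Ensembl gene ID, not normalized. TopHat2 2.1.0, HTSeq 0.6.1, edgeR 3.16.3 and build Sscrofa10.2 are named in the submitters' processing notes. The annotation release, the strand setting and how reads with several alignments were handled: not given in the sources used here. All 5 rows that name no gene stayed out of library sizes. Reads with no feature made up 19.0%, 18.9% and 22.0%, and ambiguous reads 1.89%, 2.49% and 2.18%, in Enshi black, Chinese wild boar and Large White.

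Symbols were matched by ID for 11804 IDs, and all 7 genes matched. CPM used library totals (1 count was worth 0.0484 to 0.0500 CPM). Folds used TMM factors (1.04, 0.979 and 0.978) from edgeR 4.0.16 in R 4.3.3, with Poisson intervals for levels and Clopper-Pearson intervals for folds from scipy 1.17.1 in Python 3.11.15. Without molecular identifiers or replicates, the intervals cover counting error only. A gene passed when its 95% interval lay at or above 2 or at or below 0.5. The rule was tested on data simulated with counting error only, which does not cover variation between animals.

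The 7 genes, the 15 marker lists (219 symbols, 144 matched, 127 expressed) and the tests were chosen with earlier results of these data known. All 7 genes are described. Beyond them the text names list genes that passed, up to 6 per list, family members and partners of the 7 by name, and the 3 most similar genes for CSF1R, STAB1, KDR and MMRN2. Adjacent genes, and the list genes so marked, were named after their values were seen, as were TIMD4, SPI1, LYVE1, CLEC1B, NRP1, MMP8 and other list genes that did not pass. Neighbours were taken from the order of genes in RefSeq's Sscrofa11.1, with no coordinates, and were not checked in Sscrofa10.2, the build named for the counts. The alternatives were DESeq2 1.42.0 size factors, total counts, other expression filters, bounds and intervals, and an assumed variation between animals. No sequence is shown.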

Additional observations from a re-analysis of the deposited data

How the results depend on the processing

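Under DESeq2 size factors, total counts and a wider confidence interval, all 21 folds of the 7 genes kept their direction and their side of the size rule. Total counts in place of TMM moved the median log2 fold of all genes from 0.01 to 0.11 for Enshi black over Large White and from 0.0095 to 0.10 for Enshi black over Chinese wild boar. A bound of 1.5 brought in 4 folds: CSF1R (0.501), LYZ (0.425) and KDR (0.534) for Chinese wild boar over Large White and LYZ (0.353) for Enshi black over Chinese wild boar. When variation between animals, with a coefficient assumed at 0.4, was added to the counting error, 8 folds no longer passed: for Enshi black over Large White MARCO (0.252), CLEC4F (0.399) and STAB1 (0.372), for Chinese wild boar over Large White MARCO (0.340) and STAB1 (0.337), and for Enshi black over Chinese wild boar CSF1R (0.280), CLEC4F (0.355) and KDR (2.74). Of the alternatives chosen after seeing the data, adding the counts of SNCG to those of MMRN2 gave folds of their sum. They were 0.598 for Enshi black over Large White and 0.740 for Chinese wild boar over Large White. For Enshi black over Chinese wild boar the sum was at 0.808. All were opposite in direction to MMRN2 alone. MMRN2 made up 4.46% of the sum in Chinese wild boar and 1.67% in Large White, so these are not folds of MMRN2. Adding NT5DC2 changed no STAB1 call. The macrophage minus endothelial difference for Enshi black over Large White was -3.51 with means, and without MMRN2 the 3 differences were -1.87, 0.13 (Chinese wild boar over Large White) and -2.26. Each of the 7 genes had at least 100 counts summed over the 3 libraries, so leaving out genes under that sum changed nothing.

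Numbers of genes past the size rule, higher and lower in turn, depended on the rule, as a stricter or looser rule by construction leaves fewer or more. For Enshi black over Large White they were 621 and 1110, and became 1531 and 1972 with a bound of 1.5, 130 and 405 with the assumed variation, and 352 and 638 with at least 10 CPM, while the wider interval gave 406 higher. For Chinese wild boar over Large White they were 391 and 495, and became 979 and 1141, and 75 and 103, with 275 lower at 10 CPM and 306 lower with the wider interval. For Enshi black over Chinese wild boar they were 533 and 939, and became 1303 and 1673, 114 and 364, and 276 and 544, with 315 higher under the wider interval. The other counts stayed within 1.5 times. Depth limits LYZ and MMRN2 most, with 25 and 9 counts in their lowest libraries. No paired analysis was possible because each breed has 1 library.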

Other observations

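Lymphoid, dendritic and biliary markers followed orders of their own. None of 13 expressed T and NK cell markers passed in Enshi black against Large White, while 7 passed as lower in Chinese wild boar against Large White (3.74% of all expressed genes did) and 7 as higher in Enshi black against Chinese wild boar (4.03%), with summed levels of 211, 84.4 and 202 CPM in Enshi black, Chinese wild boar and Large White. CX3CR1, the fractalkine receptor of monocytes and other myeloid cells, had 49.5, 14.9 and 20.1 CPM in that order and passed as higher in Enshi black against Large White at 2.31-fold (2.05 to 2.60). It was highest in the library where CSF1R was lowest. Of 4 expressed monocyte and dendritic cell markers, 2 passed as higher and none as lower in Enshi black against Large White (4.69% and 8.39% of all expressed genes), and 1 passed as lower in Chinese wild boar against Large White. Of 5 expressed B and plasma cell markers, 3 passed as higher and 1 as lower in Enshi black over Large White. Of 7 expressed cholangiocyte markers, none passed in Enshi black or in Chinese wild boar against Large White, and in Enshi black against Chinese wild boar 1 passed each way.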
